A study of Mus musculus with 8 samples.

Results

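Genomic imprinting leaves some genes active mainly from the copy inherited from one parent. Many of these genes set the pace of fetal growth and are switched down together after birth, and a group of them has been described as an imprinted gene network whose members rise and fall together when cells stop or resume dividing. The 10 genes described here, H19, Meg3, Dlk1, Peg3, Mest, Grb10, Plagl1, Ndn, Nnat and Peg10, were taken by name from a table of 55353 gene entries, and all 10 were found. Of these, 9 passed the filter on low counts along with 13992 genes in all, and H19 did not. No filter on their values picked the 10, but they were chosen with earlier results of these data known. The counts do not separate maternal from paternal transcripts, so imprinting itself was not measured.

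Primary smooth muscle cells from mouse aorta, grown in culture, were sequenced from 4 genotypes: E12 wild type (E12 WT), E12 knockout (E12 KO), E47 wild type (E47 WT) and E47 knockout (E47 KO). E12 and E47 are splice forms of the transcription factor gene Tcf3, also called E2A, whose proteins bind E-box sequences and are held back by ID proteins. The study behind the libraries concerns a common human ID3 variant and how E proteins and cell growth respond to it. For every genotype there were 2 libraries, from separate RNA extractions of revived frozen cells, and no treatment, strain, age, sex, passage or number of animals is given in the sources used here. Both extractions of a genotype may therefore come from 1 cell population, and p-values measure only the spread between such libraries.

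The libraries held between 13909230 and 27517374 counts. Within each genotype the 2 libraries differed by more than counting noise, so neither was a copy of the other. The chi-square per degree of freedom, which measures that excess, was 14.2 in E12 WT and between 4.77 and 5.16 in the other genotypes. The E12 WT pair was thus the least alike. Tcf3 itself stood at 109 and 107 CPM (counts scaled to a fixed library total) in E12 WT, 145 and 143 in E12 KO, 94.5 and 93.7 in E47 WT and 128 in both E47 KO libraries. These gene totals hold both splice forms and cannot show the loss of either. The smooth muscle gene Acta2 was abundant everywhere, but Tagln and Myh11, which define contractile smooth muscle, were at most 18.5 and 99.5 CPM in E47 WT and at most 6.76 and 8.82 CPM in the other genotypes. Tagln shares 67.9% of its exon length with other genes and strand was not kept. Its reads cannot be fully told apart from theirs, and its level may be undercounted. E47 WT also carried endothelial transcripts: the 10 endothelial markers summed to 737 and 668 CPM there and to between 20.6 and 45 CPM in the other 6 libraries, with Cldn5 at 0 throughout. The sum of the mesothelial markers was lowest in E47 WT, at 222 and 205 CPM for 8 genes with Wt1 at 0. They summed to 398 and 412 CPM in E47 KO, 874 and 894 CPM in E12 KO and 1584 and 1474 CPM in E12 WT. The list was not uniform: of 7 tested, 6 were higher and 1 was lower in E12 WT than in E47 WT. Several genes described here are high or low in the same E47 WT libraries, and the part of these other cell type markers in those results was not tested. In bulk RNA, fewer cells of a type and less RNA per cell cannot be told apart.

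Start-site sequences are shown for the 2 genes with the largest declines in E47 KO, Plagl1 and Mest, and for the neighbours Dlk1 and Meg3, which share a cluster and had different orders over the genotypes. They are RefSeq windows on GRCm38.p6, the stretch of up to 250 bases before an annotated start that lies outside annotated UTRs, and 8 of the 10 genes had an entry, H19 and Peg10 having none. Capitals mark the E-box letters CAGCTG or, on either strand, CACCTG (read as CAGGTG from the other strand), which E proteins are known to bind. Plagl1 is shown at chr10:13090582-13090787 (+), Mest at its upstream start at chr6:30733256-30733453 (+) and at its main start at chr6:30737800-30738049 (+), Dlk1 at chr12:109452573-109452822 (+), and Meg3 at chr12:109540746-109540995 (+).
Plagl1: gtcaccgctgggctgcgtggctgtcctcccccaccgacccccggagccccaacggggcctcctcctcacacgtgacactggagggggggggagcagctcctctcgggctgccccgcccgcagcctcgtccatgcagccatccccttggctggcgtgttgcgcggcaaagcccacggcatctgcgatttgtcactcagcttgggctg
Mest, upstream start: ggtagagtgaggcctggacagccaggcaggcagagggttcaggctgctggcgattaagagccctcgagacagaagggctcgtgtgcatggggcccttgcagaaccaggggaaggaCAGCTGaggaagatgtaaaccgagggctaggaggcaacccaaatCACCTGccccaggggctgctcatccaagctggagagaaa
Mest, main start: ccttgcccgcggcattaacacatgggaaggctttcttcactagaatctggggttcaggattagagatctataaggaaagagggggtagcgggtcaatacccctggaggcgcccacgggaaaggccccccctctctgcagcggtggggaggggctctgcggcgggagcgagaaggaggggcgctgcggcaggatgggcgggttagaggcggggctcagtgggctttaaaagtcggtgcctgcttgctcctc
Dlk1: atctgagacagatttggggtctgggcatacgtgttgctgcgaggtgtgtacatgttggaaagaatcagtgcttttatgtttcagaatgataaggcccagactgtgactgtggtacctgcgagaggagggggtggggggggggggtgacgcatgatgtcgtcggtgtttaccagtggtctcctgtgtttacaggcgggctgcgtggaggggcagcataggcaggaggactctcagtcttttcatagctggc
Meg3: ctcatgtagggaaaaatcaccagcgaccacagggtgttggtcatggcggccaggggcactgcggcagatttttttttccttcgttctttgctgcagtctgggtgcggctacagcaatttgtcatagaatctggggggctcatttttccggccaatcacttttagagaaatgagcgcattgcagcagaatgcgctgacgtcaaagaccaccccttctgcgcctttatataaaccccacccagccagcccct
Of 12 start-site entries for the 8 genes, each read over its full 250 bases, 1, the upstream start of Mest, held such a motif. Among all 32841 RefSeq windows of 250 bases, 27.7% held one. The 12 are not all separate windows outside UTRs. The Ndn entry lies wholly within annotated UTR, and the Mest entries starting at 30737800 and 30737803 are nearly the same stretch. A match is a description of letters, and the absence of one covers these windows only.

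All values below are CPM after scaling by the trimmed mean of M values unless another scale is named, and fold changes are on the log2 scale with their standard error (SE). A gene passed a test where its adjusted p from edgeR's quasi-likelihood test was under 0.05, adjusted over all genes tested. Across the 4 genotypes, 8 of the 9 tested genes passed the test for any difference, against 74.9% of all genes tested, and Nnat did not (adjusted p = 0.064). E47 WT had the highest mean for 6 of the 9: Plagl1, Mest, Peg10, Grb10, Peg3 and Nnat. The remaining 3 had their highest mean elsewhere, Dlk1 in E12 KO, Meg3 in E47 KO and Ndn in E12 WT. How many of all genes tested had their highest mean in E47 WT was not counted, so these counts describe the 9 genes only. Per kilobase of exon, Grb10 was the most abundant of the 10 in every genotype, from 6.12 CPM per kb in E47 KO to 20.1 in E47 WT.

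**Figure D1:**
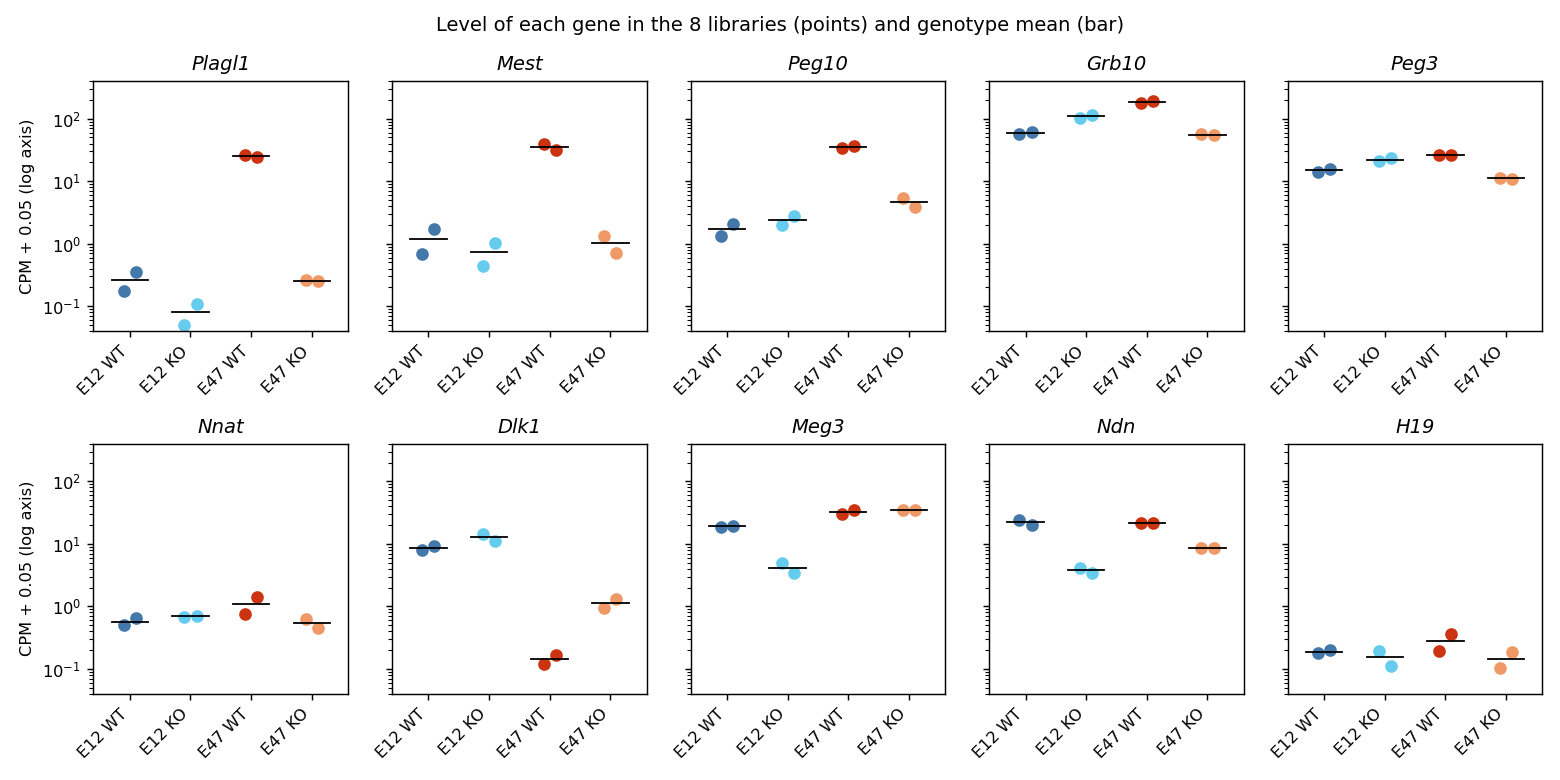
CPM of each of the 10 genes in the 8 libraries, with 0.05 added so that a count of 0 can be drawn on the log axis; points are libraries and bars genotype means. Plagl1, Mest and Peg10 stand above all other libraries in E47 WT, Dlk1 is lowest there, Ndn is low in both knockouts and Meg3 is low in E12 KO.

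The first comparison asked how the network genes differed between each knockout and the wild type of the same name. In E12 KO against E12 WT, Dlk1, Peg3 and Grb10 rose, Meg3 and Ndn fell, and Mest, Nnat, Peg10 and Plagl1 did not pass. That is 5 of 9 tested, where 46.4% of all genes passed (21.9% higher and 24.5% lower). In E47 KO against E47 WT, Plagl1, Mest, Peg10, Grb10, Peg3, Ndn and Nnat fell, Dlk1 rose and Meg3 did not pass. That is 7 lower and 1 higher of 9, where 55.2% of all genes passed (27.5% lower and 27.7% higher). With library totals only as scaling, 4068 of all genes were higher and 2783 lower in the E12 pair, against 3065 and 3426, and 5378 higher and 2638 lower in the E47 pair, against 3876 and 3853. The median log2 change of the 9 was -1.34 in the E47 pair, where that of all genes was 0.01, and 0.31 in the E12 pair, where that of all genes was -0.01. Genes with counts in a single genotype, such as Plagl1, could pass the filter only by differing between groups, so these counts describe the 9 genes and test nothing about the set. The change differed between the E12 and E47 pairs for 7 of the 9 genes by the interaction test, which 48.6% of all genes passed (22.9% higher and 25.7% lower): Peg10, Mest, Peg3 and Grb10 on the higher side in the E12 pair, and Dlk1, Meg3 and Ndn on the lower.

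**Figure D2:**
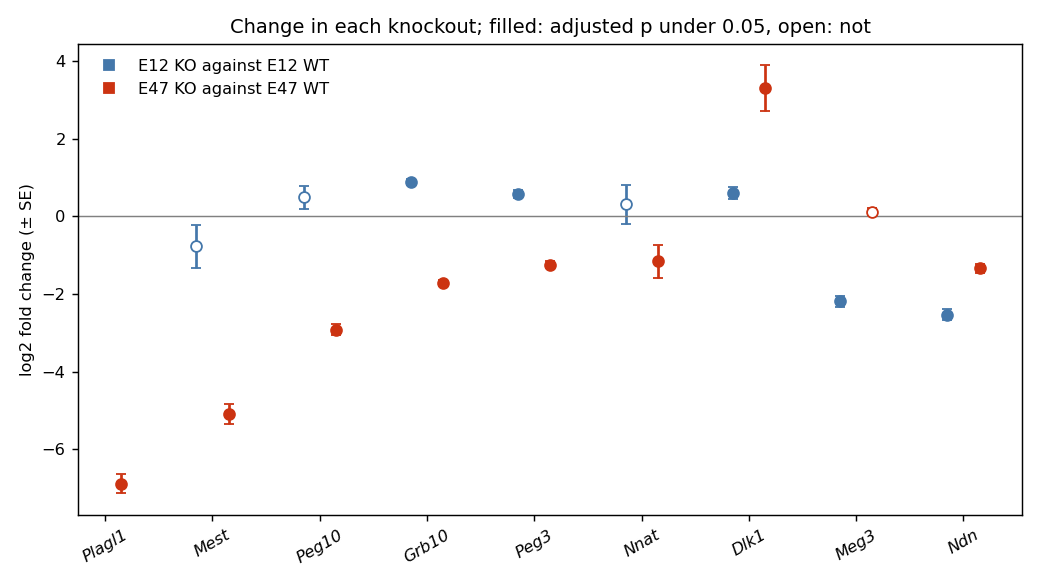
Log2 fold change with its SE for the genes tested, in E12 KO against E12 WT (blue) and E47 KO against E47 WT (red); filled points have an adjusted p under 0.05. Plagl1 in the E12 pair is left out because E12 KO holds 1 count of it. In the E47 pair 7 points lie below 0 and are filled, from -6.89 for Plagl1 to -1.16 for Nnat, and in the E12 pair only Meg3 and Ndn do.

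Plagl1, also known as Zac1, is a zinc finger transcription factor that can halt the cell cycle and has been placed upstream of several other imprinted genes. It lies on chromosome 10 at 13060504-13131694 (+). Its counts were 365 and 625 in E47 WT and 4 or fewer in each of the other 6 libraries. In CPM that is 26.1 and 24.4 in E47 WT, 0.208 and 0.201 in E47 KO, 0.128 and 0.299 in E12 WT, and 0 and 0.0601 in E12 KO. E47 WT thus stood apart from every other library, and the other genotypes lay near the level of single reads. The gene fell by 6.89 on the log2 scale in E47 KO (SE 0.245, adjusted p = 6.1e-12), a 119-fold difference, and E12 WT was 118-fold below E47 WT (adjusted p = 6.0e-12). For E12 KO, with 1 count over its libraries, the ratio of E47 WT to E12 KO was 934, with a 95% counting interval of 167 to 36924. E12 WT and E47 KO, with 6 and 7 counts, did not differ detectably at this depth (adjusted p = 0.99). The 4 neighbours tested did not share its pattern in size. Phactr2, an actin and phosphatase regulator next to it, was at 86.5 and 88.6 CPM in E47 WT, 39.0 and 37.0 in E47 KO, 29.99 and 37.3 in E12 WT and 11.6 and 12.7 in E12 KO. Phactr2 fell in both pairs, with log2 changes of -1.20 (E47, adjusted p = 2.9e-08) and -1.47 (E12, adjusted p = 4.7e-08). Utrn fell in the E47 pair (-0.94), Sf3b5 fell in the E12 pair (-0.49), and Ltv1 passed in neither. Plag1, a zinc finger paralog of Plagl1, was also highest in E47 WT, at 2.65 and 2.18 CPM against 1.04 and 1.14 in E47 KO (log2 change -1.12, adjusted p = 0.0076). That call was lost without E47 KO replicate 1 (-1.05, adjusted p = 0.065) and with DESeq2 (-1.16, adjusted p = 0.11).

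Peg3, a large zinc finger protein expressed from the paternal copy on chromosome 7 at 6703892-6730431 (-), moved in opposite directions in the 2 knockouts. It stood at 14.1 and 15.5 CPM in E12 WT and 21.0 and 23.0 in E12 KO. It stood at 26.2 and 26.0 in E47 WT and 11.2 and 10.8 in E47 KO. The libraries of the 4 genotypes did not overlap. Peg3 rose in E12 KO by 0.57 on the log2 scale (SE 0.0982, adjusted p = 2.4e-04) and fell by 1.24 in E47 KO (SE 0.0980, adjusted p = 6.0e-08). The interaction was 1.81 (SE 0.139, adjusted p = 6.0e-08). The span from the highest to the lowest genotype mean was 2.37-fold, among the narrowest of the 10. E12 KO against E47 WT, neighbours in that order, differed by -0.25 (adjusted p = 0.022), a call lost under 6 of the alternative settings. Zim1, a maternally expressed zinc finger gene beside Peg3, was at 1.72 and 1.60 CPM in E47 WT and 0.208 and 0.0668 in E47 KO. Zim1 fell in E47 KO (log2 change -3.43, adjusted p = 1.4e-04), and was at 0 in both E12 KO libraries. It held 65 counts in E47 WT and 5 in E47 KO. Zim1 passed the low-count filter only through E47 WT, so it could be tested only as a gene high there.

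Grb10 encodes an adaptor that binds the insulin and IGF1 receptors and restrains their signal, and it limits fetal growth. It lies on chromosome 11 at 11930508-12038683 (-). Its libraries read 56.9 and 60.8 CPM in E12 WT, 103 and 114 in E12 KO, 177 and 189 in E47 WT and 57.1 and 54.1 in E47 KO. E47 WT was above E12 KO, which was above the other 4 libraries, and E12 WT overlapped E47 KO (adjusted p = 0.47). As means, the levels were 58.8 ± 2.73 CPM (SD, n = 2) in E12 WT, 109 ± 7.70 in E12 KO, 183 ± 8.92 in E47 WT and 55.6 ± 2.15 in E47 KO. Grb10 rose in E12 KO by 0.89 on the log2 scale (SE 0.0778, adjusted p = 2.9e-07) and fell by 1.72 in E47 KO (SE 0.0773, adjusted p = 9.4e-11). The interaction of 2.60 (SE 0.110, adjusted p = 7.2e-11) was, relative to its error, the clearest of the 9. Cobl, the actin nucleator next to Grb10 in the same region, did not follow it. Cobl fell in both knockouts, from 52.8 and 63.5 CPM to 18.1 and 16.5 in the E12 pair (log2 change -1.75) and from 67.7 and 64.5 to 42.2 and 42.3 in the E47 pair (-0.64). Igf1r, a receptor that Grb10 binds, fell in both pairs, with log2 changes of -0.75 in E12 KO (adjusted p = 3.0e-04) and -1.02 in E47 KO (adjusted p = 1.3e-05). Igf1r moved against Grb10 in the E12 pair and in the same direction in the E47 pair.

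Dlk1 encodes a membrane protein with EGF-like repeats, related to Notch ligands, that keeps precursor cells from maturing and is expressed from the paternal copy. It lies on chromosome 12 at 109452823-109463336 (+). It was lowest where Plagl1 and Mest were highest. Dlk1 stood at 14.2 and 11.2 CPM in E12 KO, 7.98 and 9.04 in E12 WT, 0.884 and 1.27 in E47 KO and 0.0716 and 0.117 in E47 WT. The E47 WT values are 1 and 3 counts, and none of the genotypes overlapped. The highest and lowest genotype means were 134-fold apart. Dlk1 rose in E47 KO by 3.30 on the log2 scale (SE 0.590, adjusted p = 2.5e-04). It rose in E12 KO by 0.59 (SE 0.154, adjusted p = 0.0056), a call that was lost without E12 KO replicate 1 (0.40, adjusted p = 0.11) and with DESeq2 (0.58, adjusted p = 0.093). The difference between the pairs was -2.71 (SE 0.633, adjusted p = 0.0025). E12 WT stood 78.6-fold above E47 WT (adjusted p = 1.2e-09) and 7.998-fold above E47 KO (adjusted p = 1.3e-07). Dlk2, the paralog that is not imprinted, was at 2.17 and 2.32 CPM in E12 WT, 1.59 and 1.68 in E12 KO, 0.215 and 0.312 in E47 WT and 1.56 and 1.20 in E47 KO. It was lowest in E47 WT like Dlk1 and rose in E47 KO by 2.31 (adjusted p = 2.2e-04). Notch1, a receptor that Dlk1 is thought to inhibit, was highest in E47 WT at 92.3 and 88.6 CPM and fell to 24.4 and 28.1 in E47 KO (log2 change -1.79, adjusted p = 9.0e-09). Notch1 is also strongly expressed by endothelium, whose markers were high in the same E47 WT libraries, and their part in this result was not tested.

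Meg3 is a long noncoding RNA made from the maternal copy of the same cluster as Dlk1, starting downstream of it at chromosome 12, 109541001-109571726 (+). It did not mirror Dlk1. Meg3 stood at 18.9 and 19.4 CPM in E12 WT, 4.83 and 3.42 in E12 KO, 29.8 and 34.5 in E47 WT and 35.3 and 34.5 in E47 KO. E12 KO was far below all others, E12 WT was intermediate, and the 2 E47 genotypes were close together. Meg3 fell by 2.19 on the log2 scale in E12 KO (SE 0.144, adjusted p = 1.2e-08). In E47 KO the difference was 0.11 (SE 0.0979, adjusted p = 0.37), and it passed only when libraries were scaled by their totals alone (0.27, adjusted p = 0.032). The interaction was -2.30 (SE 0.176, adjusted p = 6.0e-08), so the E12 and E47 pairs differed. E12 WT was 1.69-fold below E47 WT (adjusted p = 2.4e-05).

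Rian, a noncoding RNA further along the same maternal strand that hosts small nucleolar RNAs, shared part of this pattern. Rian was at 24.8 and 23.7 CPM in E12 WT, 12.5 and 13.6 in E12 KO, 31.2 and 34.7 in E47 WT and 54.6 and 51.1 in E47 KO. It fell in E12 KO (log2 change -0.90, SE 0.0989, adjusted p = 3.2e-06), as Meg3 did, and rose in E47 KO (0.68, SE 0.0810, adjusted p = 5.7e-06), where Meg3 did not pass. Mirg, the next noncoding RNA of the cluster, had 1.47 CPM at most. Its 2 E12 KO libraries, at 0.241 and 0.120, were below those of E12 WT at 0.574 and 0.598 (log2 change -1.61, adjusted p = 0.071). Rtl1 and Dio3, the other paternal genes of the cluster, had at most 7 and 9 counts over a genotype and were not tested. Outside the imprinted stretch, Wars rose in E12 KO by 0.28 (adjusted p = 0.0046) and Ppp2r5c fell by 0.36 in E47 KO (adjusted p = 3.0e-04).

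H19, the maternal noncoding RNA opposite Igf2 on chromosome 7 at 142575529-142578143 (-), was close to the limit of detection. Its counts were 2 and 2 in E12 WT, 3 and 1 in E12 KO, 2 and 8 in E47 WT and 1 and 2 in E47 KO. That limit, taken as 3 counts, lay between 0.117 and 0.224 CPM per library, and 7 of the 8 values of H19 were 3 counts or fewer. The ratio of E47 WT to E47 KO was 2.88, with a 95% counting interval of 0.741 to 16.3. Such intervals and limits cover counting error only, since reads are not independent molecules. Igf2, the fetal growth factor of the same domain, had 2 counts in E12 WT and 0 in the other genotypes. Igf2 shares 64.5% of its exon length with other genes and strand was not kept, so its counts may miss reads.

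Mest, a paternally expressed hydrolase-fold protein of mesoderm and growing fat, lies on chromosome 6 at 30723547-30748465 (+). It stood at 39.5 and 31.4 CPM in E47 WT. The other genotypes were at 1.30 and 0.668 (E47 KO), 0.638 and 1.64 (E12 WT), and 0.386 and 0.961 (E12 KO). These 3 overlapped one another and lay far below E47 WT. Mest fell by 5.09 on the log2 scale in E47 KO (SE 0.255, adjusted p = 3.3e-10), a 34.1-fold difference, and E12 WT was 31.6-fold below E47 WT (adjusted p = 3.7e-10). In the E12 pair the log2 change was -0.77 (SE 0.556, adjusted p = 0.28). Without E12 WT replicate 1 it was -1.35 (adjusted p = 0.045), so 1 library decides that call. The interaction was 4.32 (SE 0.726, adjusted p = 1.8e-04).

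Because 23.1% of the exon length of Mest overlaps Copg2 on the other strand and strand was not kept, reads of these genes cannot be fully told apart. Copg2, a coat protein subunit of vesicles, was at 57.4 and 63.6 CPM in E47 WT and at 54.1 and 52.8 in E47 KO. Its E47 difference was -0.18 (adjusted p = 0.047), was lost under 8 alternative settings and was far smaller than that of Mest. In the E12 pair, Copg2 was at 53.2 and 54.5 CPM in E12 WT and 61.6 and 59.3 in E12 KO (log2 change 0.17, adjusted p = 0.080).

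Peg10, a gene derived from a retrotransposon and needed for the placenta, lies on chromosome 6 at 4747306-4760517 (+). It was highest in E47 WT, at 33.8 and 36.1 CPM, followed by 5.25 and 3.88 in E47 KO. E12 KO stood at 1.93 and 2.70 and E12 WT at 1.28 and 2.02, and these last 2 overlapped. Peg10 fell by 2.92 on the log2 scale in E47 KO (SE 0.146, adjusted p = 3.2e-10) but, unlike Plagl1 and Mest, E47 KO kept a level 2.85-fold above E12 WT (adjusted p = 2.8e-04). In the E12 pair the change was 0.49 (SE 0.294, adjusted p = 0.19), and the interaction was 3.41 (SE 0.330, adjusted p = 8.2e-07). E12 WT was 21.5-fold below E47 WT (adjusted p = 2.3e-11).

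The 6 tested neighbours of Peg10 all fell in E47 KO, where 27.5% of all genes tested were lower. This count describes the 6 genes and tests nothing about the region. Sgce, the sarcoglycan gene that shares its paternal start region with Peg10 on the opposite strand, was at 76.9 and 72.2 CPM in E47 WT and 45.4 and 51.1 in E47 KO (log2 change -0.63, SE 0.0770, adjusted p = 7.2e-06). The E12 genotypes of Sgce were lower, at 26.6 and 28.3 in E12 WT and 22.3 and 22.6 in E12 KO. The log2 changes in E47 KO were thus -0.63 for Sgce and -2.92 for Peg10. Asb4, a subunit of a ubiquitin ligase, had 1.003 and 1.99 CPM in E47 WT and 0.104 and 0.201 in E47 KO (-3.39, adjusted p = 2.3e-04). It held 65 counts in E47 WT and 5 in E47 KO. Asb4 passed the low-count filter only through E47 WT, so it could be tested only as a gene high there. Casd1, Pon2 and Pon3 fell with log2 changes of -0.70, -0.44 and -0.43. In the E12 pair 1 of the 6 neighbours rose, 2 fell and 3 did not pass, where 21.9% of all genes were higher and 24.5% lower. Sgce was among the 2 that fell. Its call there was lost with library totals only (log2 change -0.19, adjusted p = 0.088) and with DESeq2 (-0.29, adjusted p = 0.064). It was also lost without E12 WT replicate 2 (-0.25) and without either E12 KO library (-0.27 and -0.29). Ppp1r9a, a neuronal scaffold protein, was the neighbour that rose, from 0.319 and 0.673 CPM in E12 WT to 4.92 and 6.01 in E12 KO (log2 change 3.47, SE 0.328, adjusted p = 6.4e-07). It fell from 15.04 and 12.2 to 6.24 and 7.15 in the E47 pair (-1.01, SE 0.158, adjusted p = 7.6e-05).

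**Figure D3:**
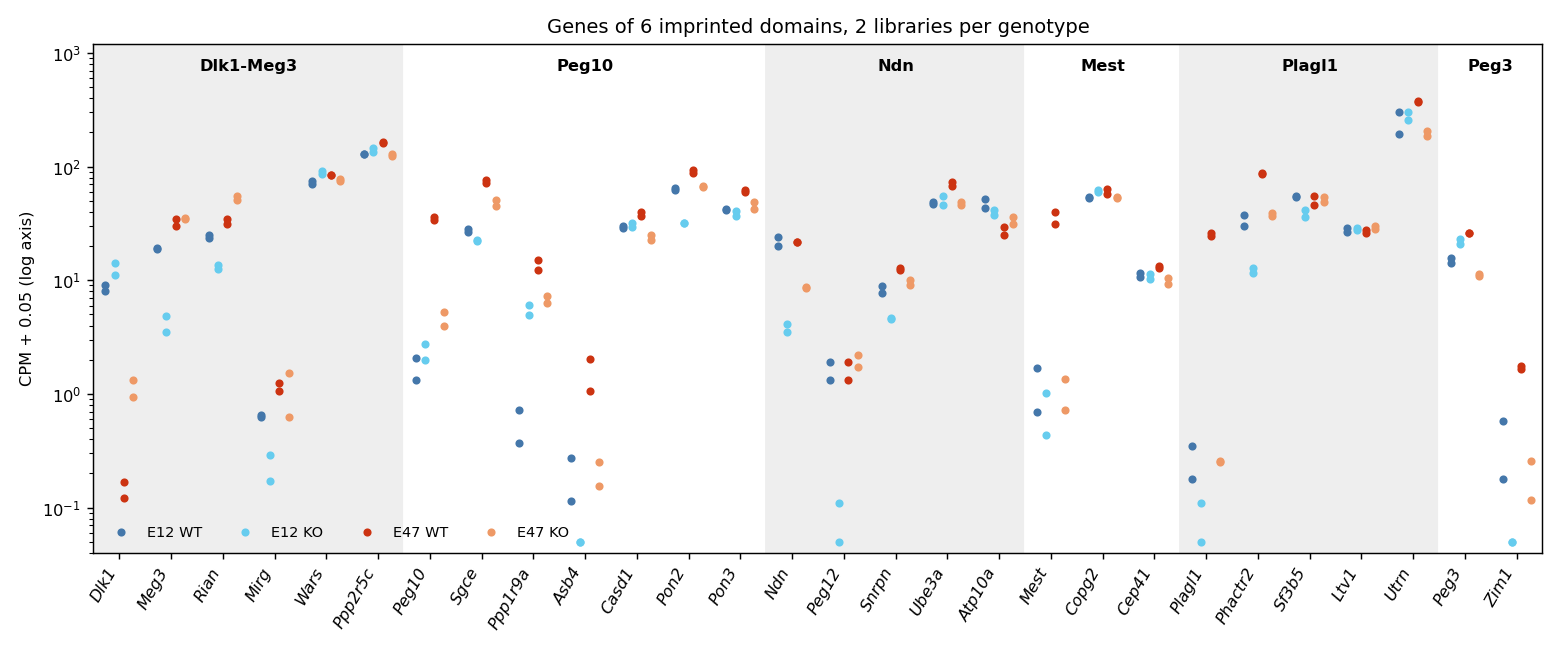
CPM plus 0.05 on a log axis for genes of 6 imprinted regions that passed the low-count filter (Begain, of the Dlk1-Meg3 region, is not drawn); each point is a library, coloured by genotype. Rian lies low in E12 KO with Meg3, Peg12 is lowest in E12 KO, and Copg2 lies between 52.8 and 63.6 CPM where Mest spans 52.6-fold between genotype means.

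Ndn encodes necdin, a MAGE family protein of postmitotic neurons that slows division, and is paternally expressed from chromosome 7 at 62346569-62350262 (+). It fell in both knockouts, and with all 8 libraries no other of the 9 genes did. Without E12 WT replicate 1, Mest and Plagl1 also passed as lower in both. Ndn stood at 24.1 and 19.96 CPM in E12 WT, 4.10 and 3.42 in E12 KO, 21.8 and 21.6 in E47 WT and 8.52 and 8.62 in E47 KO. The wild types overlapped (log2 difference 0.03, adjusted p = 0.84), and each knockout lay below both. Ndn fell by 2.54 on the log2 scale in E12 KO (SE 0.137, adjusted p = 1.3e-09) and fell by 1.34 in E47 KO (SE 0.118, adjusted p = 2.1e-07). The decline was larger in the E12 pair (interaction -1.20, SE 0.188, adjusted p = 1.0e-04). Ndn therefore differed from Plagl1, Mest and Peg10, whose E12 WT libraries were already low.

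Other genes of the Ndn region followed it unevenly. Peg12, a small paternally expressed gene beside Ndn, was at 1.85 and 1.27 CPM in E12 WT and had 1 count over both E12 KO libraries, a ratio of 59.2 with a 95% counting interval of 10.1 to 2387. It was at 1.86 and 1.29 CPM in E47 WT and 2.13 and 1.67 in E47 KO (log2 change 0.35, adjusted p = 0.37). Peg12 thus shared the loss of Ndn in E12 KO, while in the E47 pair it did not pass. Snrpn, a splicing protein gene with 34.1% of its exon length shared with other genes, fell by 0.86 in E12 KO (adjusted p = 2.6e-04). In E47 KO its difference was -0.40 (adjusted p = 0.011), a call lost without E47 WT replicate 2 (-0.36, adjusted p = 0.097) and without E47 KO replicate 2 (-0.32, adjusted p = 0.084). It was also lost with library totals only (-0.24, adjusted p = 0.12) and with DESeq2 (-0.41, adjusted p = 0.12). Ube3a, a ubiquitin ligase gene with 27.3% of its exon length shared, had a log2 difference of 0.07 in the E12 pair (adjusted p = 0.58) and fell by 0.57 in E47 KO (adjusted p = 8.8e-05). Magel2 had no count in any library.

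Nnat, the membrane proteolipid neuronatin, lies on chromosome 2 at 157560078-157562522 (+) within the gene Blcap. It was at or below 1.36 CPM in every library and was the tested gene whose genotype means lay closest together. It stood at 0.447 and 0.598 CPM in E12 WT, 0.628 and 0.661 in E12 KO, 0.716 and 1.36 in E47 WT and 0.572 and 0.401 in E47 KO. The highest value, 1.36, came from a single E47 WT library. Nnat passed as lower in E47 KO (log2 change -1.16, SE 0.426, adjusted p = 0.031), but without E47 WT replicate 2 the change was -0.52 (adjusted p = 0.53). The call was also lost without either E47 KO library, with DESeq2 (adjusted p = 0.26) and with library totals only (adjusted p = 0.056). Blcap, its host, was lower in E12 WT than in E47 WT (log2 difference -0.50) and passed in neither knockout pair.

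The rule behind this selection also asked for the genotypes to be compared as cultured populations. E12 WT against E47 WT gave 7 genes lower and 1 higher of 9, where 55.4% of all genes passed (27.6% lower and 27.8% higher). The 7 include Nnat (-1.10, adjusted p = 0.046), whose call was lost under 10 of the settings in which it was tested. Among these were DESeq2 (-1.04, adjusted p = 0.32), the compared groups alone (adjusted p = 0.062) and the fit without E47 WT replicate 2 (-0.46). Ndn was the gene that did not pass, and Dlk1 was the one that was higher in E12 WT. Below E47 WT, Plagl1 was 118-fold lower in E12 WT and 119-fold in E47 KO, and Mest 31.6- and 34.1-fold. Peg10 was 21.5-fold lower in E12 WT and 7.56-fold in E47 KO, and Dlk1 was 78.6- and 9.82-fold higher. Both comparisons share the E47 WT libraries. E47 KO against E12 WT compares no E47 WT library, although those libraries entered the shared filter, scaling and estimate of spread. It gave 2 genes higher (Meg3 and Peg10) and 3 lower (Dlk1, Peg3 and Ndn), where 38.1% of all genes passed (18.6% higher and 19.6% lower). Without E12 WT replicate 2 the Peg3 call there was lost (-0.36, adjusted p = 0.054, against -0.43 and 0.0063 with all libraries). In that comparison Plagl1, Mest, Grb10 and Nnat did not pass. E12 KO against E47 KO gave 3 higher (Dlk1, Peg3 and Grb10) and 4 lower (Meg3, Plagl1, Ndn and Peg10), where 52.9% of all genes passed (25.9% higher and 27% lower). Plagl1 is counted there with 1 count against 7, a ratio of 7.65 with a 95% counting interval of 0.982 to 345. Its call was lost under 7 of the settings in which it was tested. E12 KO against E47 WT gave 1 higher (Dlk1) and 7 lower, where 65% of all genes passed (32.5% in each direction), and Nnat did not pass.

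**Figure D4:**
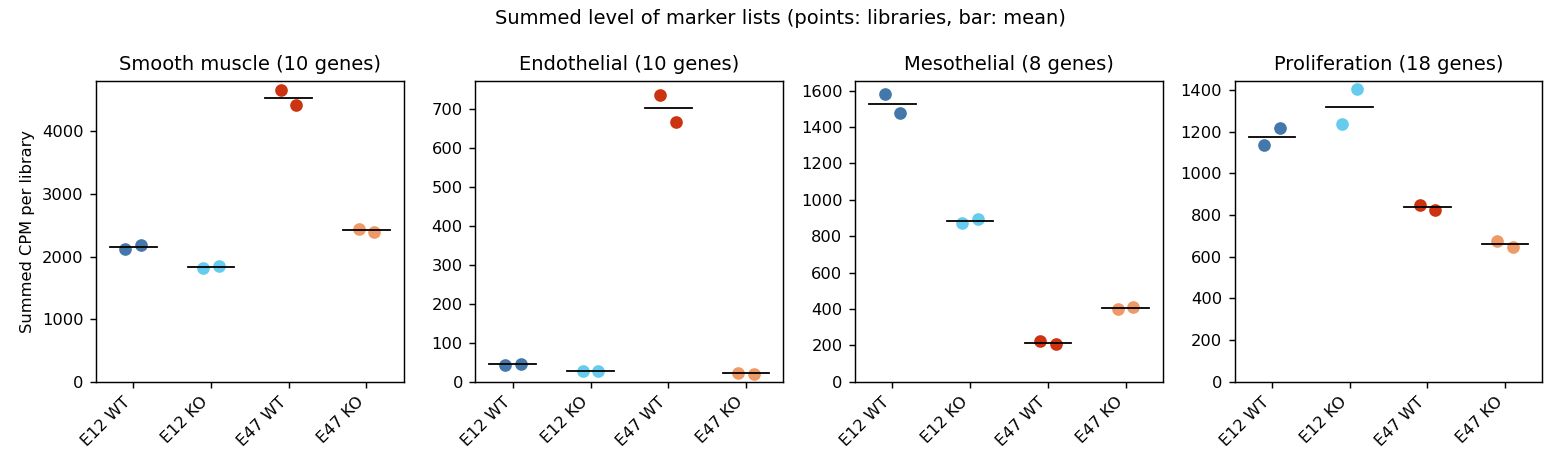
Summed CPM per library of marker lists for smooth muscle, endothelial and mesothelial cells and for proliferation; points are libraries, bars genotype means, and each panel has its own axis from 0. Endothelial and smooth muscle sums are highest in E47 WT, at 737 and 668 CPM and at 4663 and 4418 CPM, and the mesothelial sums are lowest there.

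E47 WT was the highest or lowest genotype in many of these contrasts, and its other differences are given beside them. All 9 tested endothelial markers fell in E47 KO, where 27.5% of all genes were lower and 27.7% higher. Their median log2 change was -6.48. Pecam1, for example, was at 211 and 194 CPM in E47 WT and at 2.24 or below in every other library. Mesothelial markers rose in E47 KO in 6 of 7 tested genes and fell in 1. The smooth muscle list fell in 9 of 10 and rose in 1. Leaving out both E47 WT libraries, an analysis added after the values were seen, left the counts of these genes as they were in E12 KO against E12 WT and in E47 KO against E12 WT. In E12 KO against E47 KO it gave 3 lower in place of 4. Plagl1 is missing there because the low-count filter dropped it without E47 WT, so it was not tested.

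Other imprinted genes did not share a single direction. Of 33 listed, 21 were tested, and in the E12 pair 5 rose and 9 fell, while in the E47 pair 5 rose and 7 fell. That is 66.7% of those tested in the E12 pair, where 46.4% of all genes passed. In the E47 pair it is 57.1%, near the 55.2% of all genes. Dcn, a matrix proteoglycan imprinted in the placenta, was at 2.15 and 1.95 CPM in E47 WT and 90.3 and 98.9 in E47 KO (log2 change 5.54, SE 0.147, adjusted p = 3.0e-13), with 63.1 and 58.8 in E12 WT. Dcn thus had its lowest level in E47 WT, as Dlk1 did. Gatm, an enzyme of creatine synthesis, rose in both knockouts: from 0.574 and 0.598 CPM to 13.3 and 12.9 in the E12 pair (log2 change 4.47) and from 0.573 and 0.741 to 7.22 and 5.55 in the E47 pair (3.23). Tnfrsf23, a decoy receptor gene of the Kcnq1 region, fell in both, with log2 changes of -1.99 in the E12 pair and -0.88 in the E47 pair.

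Among genes near the 10, 29 of 51 were tested, and 3 rose and 11 fell in the E12 pair, with a median log2 change of -0.11. That is 48.3% of those tested, near the 46.4% of all genes. In the E47 pair 3 rose and 15 fell, with a median of -0.28, which is 62.1% against 55.2% of all genes. Fetal growth genes that are not imprinted were tested for 9 of 13, with 4 higher and 3 lower in the E12 pair and 1 higher and 4 lower in the E47 pair. That is 77.8% of those tested against 46.4% of all genes in the E12 pair, and 55.6% against 55.2% in the E47 pair. Mycn, a proto-oncogene of embryonic growth, was highest in E47 WT, as Plagl1 and Mest were. It stood at 39.4 and 35.5 CPM in E47 WT, 0.364 and 0.334 in E47 KO, 2.17 and 1.87 in E12 WT, and 0 and 0.120 in E12 KO, and fell by 6.70 in E47 KO (SE 0.214, adjusted p = 1.8e-12). Smoc2, a matricellular protein gene, was also highest in E47 WT, at 89.7 and 91.5 CPM, and fell in both knockouts, with log2 changes of -2.20 in the E47 pair and -1.34 in the E12 pair.

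Genes that keep imprints in place were tested for 11 of 14, with 5 higher and 2 lower in the E12 pair and 1 higher and 6 lower in the E47 pair. That is 63.6% of those tested in each pair, where 46.4% of all genes passed in the E12 pair and 55.2% in the E47 pair. Zfp57, which protects imprinted methylation, was at 48.2 and 39.8 CPM in E12 WT, 41.4 and 33.3 in E12 KO, 20.2 and 19.8 in E47 WT and 27.2 and 29.9 in E47 KO. It was lowest in E47 WT and rose in E47 KO by 0.51 (adjusted p = 0.0021). Uhrf1, which brings maintenance methylation to replicating DNA, rose in E12 KO by 0.39 and fell by 0.40 in E47 KO. Ctcf, the insulator protein of several imprinted regions, rose in E12 KO by 0.45 (adjusted p = 1.5e-04), and its E47 difference of -0.25 was lost with library totals only (-0.09, adjusted p = 0.30), without E47 WT replicate 2 (adjusted p = 0.059) and without E47 KO replicate 2 (-0.20, adjusted p = 0.089). Tet1, an enzyme that oxidises methylated cytosine, fell by 1.55 in E12 KO (adjusted p = 8.2e-05).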

How the data were processed

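Poly(A) mRNA of 8 libraries, 2 for each of 4 genotypes, was sequenced without keeping strand, per the labels' protocols. The authors deposited whole-number counts per gene, and the submitters' processing notes name FastQC, HISAT, featureCounts and the build GRCm38 (mm10), with versions, settings and annotation not given in the sources used here. Counts were tested with edgeR 4.0.16 in R 4.3.3 (TMM scaling, filterByExpr, 4-group quasi-likelihood model with 4 residual degrees of freedom, Benjamini-Hochberg adjustment over 13992 genes), and the procedure was tested on simulated data. The upper limit for a gene with 0 counts was set at 3 counts, and groups with 3 counts or fewer are given as ratios with exact 95% counting intervals. Symbols were matched to GENCODE M21 for positions and exon lengths. Alternatives were DESeq2 1.42.0, other scalings and filters, each library left out, and the compared groups alone. The genes, lists and tests were chosen with earlier results of these data known. Named genes are the 10 members and tested genes of their regions. From each of 4 further lists, up to 4 genes with the lowest p for any difference are also named. The marker genes Acta2, Tagln, Myh11, Pecam1, Wt1, Cldn5, C1qa, C1qb and Myod1 stand outside that rule. So do Tcf3, Igf2, Rtl1, Dio3 and Magel2. The genes outside the rule were chosen after their values were seen.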

Additional observations from a re-analysis of the deposited data

Results flagged for a closer look

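The change differed between the E12 and E47 knockouts, by the interaction test, for 7 of the 9 tested genes. Each value is the log2 change in the E12 pair minus that in the E47 pair. Grb10 (2.60, SE 0.110, adjusted p = 7.2e-11) and Peg3 (1.81, SE 0.139, adjusted p = 6.0e-08) rose in the first pair and fell in the second. Mest (4.32, SE 0.726, adjusted p = 1.8e-04) and Peg10 (3.41, SE 0.330, adjusted p = 8.2e-07) fell in the E47 pair and did not pass in the E12 pair. Meg3 (-2.30, SE 0.176, adjusted p = 6.0e-08) fell in the E12 pair and did not pass in the E47 pair. Dlk1 (-2.71, SE 0.633, adjusted p = 0.0025) rose in both, by more in the E47 pair. Ndn (-1.20, SE 0.188, adjusted p = 1.0e-04) fell in both, by more in the E12 pair.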

How the results depend on the processing

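Of 886 alternative values for the 9 tested genes, 848 stayed on their side of the threshold, 31 lost a call, 7 gained one, and 0 that passed the test changed sign. A setting that dropped a gene before testing gave no value, so calls lost in that way are not among them. Some values that did not pass changed sign, such as Mest in the E12 pair, from -1.49 to 0.01. Leaving out each library in turn, the count of genes lower in E12 KO ran from 2 to 4; it was 4 without E12 WT replicate 1, when Mest (-1.35, adjusted p = 0.045) and Plagl1 (adjusted p = 0.043) joined. With library totals only, the count of genes higher in E47 KO was 2, through Meg3. That scaling moved the median log2 change of all genes from 0.01 to 0.17 in the E47 pair. With it, E12 KO against E47 WT had 5912 genes higher and 3497 lower, against 4546 and 4547, and E47 KO against E12 WT had 3448 and 2125, against 2598 and 2736. No paired analysis was possible because the labels give the genotypes no shared replicate numbers. Genes near the detection limit (H19, Nnat, and Plagl1 outside E47 WT) are limited by depth.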

Other observations

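The proliferation list of 18 genes summed to 1135 and 1219 CPM in E12 WT, 1235 and 1406 in E12 KO, 849 and 824 in E47 WT and 674 and 647 in E47 KO. In the E12 pair 5 of its genes rose and 1 fell, and in the E47 pair 3 rose and 11 fell. That is 33.3% of the list against 46.4% of all genes in the E12 pair, and 77.8% against 55.2% in the E47 pair. Peg3 and Grb10 rose in E12 KO and fell in E47 KO in the same libraries, and no relation between these genes and the list was tested. Paralogs and binding partners of the 10 genes were tested for 11 of 12, with 2 higher and 2 lower in the E12 pair and 4 higher and 4 lower in the E47 pair. Of those tested, 36.4% passed in the E12 pair and 72.7% in the E47 pair, beside the same 46.4% and 55.2% of all genes.

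Markers of further cell types were also summed. Adventitial fibroblast markers (8 genes) stood at 135 and 145 CPM in E12 WT, 158 and 151 in E12 KO, 218 and 205 in E47 WT and 350 and 399 in E47 KO. Schwann and neural markers were at 104 and 103 CPM in E47 WT and 124 and 128 in E47 KO, against 49.5 at most in the E12 libraries. Macrophage markers reached 16.4 CPM, with C1qa and C1qb at 0 in all libraries. Adipocyte markers reached 33.6 CPM, in E12 KO, and striated muscle markers reached 79.3 CPM, also in E12 KO, with Myod1 at 0 throughout.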
